A study of Mus musculus with 40 samples.

Results

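Integrins are receptors made of an alpha and a beta subunit that join the extracellular matrix to the actin cytoskeleton. A subset recognises the tripeptide arginine-glycine-aspartate (RGD), which fibronectin and vitronectin carry and which the latent form of TGF-beta also displays. The 7 genes described here encode subunits of these RGD receptors: the alpha subunits Itgav, Itga5 and Itga8, and the beta subunits Itgb3, Itgb5, Itgb6 and Itgb8. Each was taken by its gene symbol from a table of 21347 genes, which holds 26 integrin genes in all. The rule that names them uses no measured value.

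The alpha-v chain pairs with each of the 4 beta chains listed and with beta-1 (Itgb1). Alpha-v-beta-3 and alpha-v-beta-5 are the classical vitronectin receptors, alpha-5-beta-1 is the main fibronectin receptor, and alpha-8-beta-1 binds nephronectin. Alpha-v-beta-6, an epithelial receptor, and alpha-v-beta-8 are known for releasing active TGF-beta from its latent complex. In carcinomas these receptors are studied for adhesion, invasion and TGF-beta signalling.

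The cells were 4T1, an established BALB/c mouse mammary carcinoma line. They were plated at 10000 cells per cm2 on uncoated tissue culture polystyrene (PS) or on polystyrene coated with 250 µg/ml of collagen I, collagen IV, fibronectin or vitronectin. The next day 1 well of each pair received C57Bl6 splenic T cells at 80000 per cm2 with interleukin 2 (IL2) at 30 U/mL, and the other received IL2 alone. RNA was taken after a further 24 h from floating and attached cells together, so a co-culture library mixes carcinoma and T cell RNA. The T cells and the 4T1 cells are of different mouse strains, and every carcinoma value comes from 1 cell line. In these bulk libraries, fewer cells of a type and less RNA per cell cannot be told apart.

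The 40 libraries came from 5 experiments. Of 4T1 alone there were 5 libraries each for uncoated plastic and fibronectin and 4 each for both collagens and vitronectin. Co-cultures numbered 4 each for uncoated plastic, collagen IV and fibronectin, and 3 each for collagen I and vitronectin. Experiment 1 had uncoated plastic and fibronectin only, and experiment 3 had a single co-culture, on collagen IV. Depth was 19.0 to 47.7 M reads (M, 1000000) in 39 libraries and 239 M in the collagen IV co-culture of experiment 5. The 12 epithelial markers were all present in 4T1 alone, with a summed level of 2860 to 3999 reads per M. The 19 T cell markers summed to 2.82 to 6.02 in 4T1 alone and to 23.4 to 354 in the co-cultures of experiments 1, 2, 3 and 5. In the 5 co-cultures of experiment 4 they summed to 1246 to 3767, and the epithelial markers there summed to 1756 to 2659. The experiment 4 co-cultures thus stood apart from the other 13, and the mean T cell differences of the genes called are given with and without that experiment where it left them testable.

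Values are the authors' reads per M of the scaled library size. Unless stated otherwise, differences are on the log2(value + 1) scale, which understates changes of low genes. They were tested with limma in 1 fit over all 40 libraries, with Benjamini-Hochberg adjustment over the 14701 genes tested and a threshold of 0.05. All 7 members passed the filter of at least 1 read per M in at least 3 libraries. Itga8 did so through 5 libraries and Itgb8 through 4. For Itgb8 these were the experiment 4 co-cultures on collagen I, collagen IV and fibronectin, and uncoated plastic alone of experiment 5.

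In 4T1 alone, beta-5 and alpha-v were the most abundant of the 7, alpha-5 followed, beta-3 and beta-6 lay well below it, and alpha-8 and beta-8 were represented by few reads. Genes were compared per kilobase of exon, over the 22 libraries of 4T1 alone. Itgb5 stood at 39.6 ± 5.64 reads per M per kb (SD, n = 22), Itgav at 17.4 ± 1.12 and Itga5 at 9.99 ± 0.506. The ranges of these 3 genes did not overlap one another. Itgb3 stood at 1.12 ± 0.417 and Itgb6 at 1.03 ± 0.248, and their ranges overlapped. Itga8 stood at 0.0964 ± 0.0505 and Itgb8 at 0.0478 ± 0.0211, which overlapped as well, and both lay below every library of Itgb6.

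Among all 26 integrin genes the members held positions 3, 6, 9, 11, 12, 18 and 19. The top of that order was taken by Itga3 at 354 and Itgb1 at 312 reads per M per kb, the chains of the laminin receptor alpha-3-beta-1. Itgb1 is also the partner of alpha-5, alpha-8 and part of alpha-v. When coding length was used in place of exon length, Itgav (59.6 ± 3.85) and Itgb5 (57.5 ± 8.19) overlapped, and the order within 2 pairs changed: Itgav came before Itgb5, and Itgb6 (3.11 ± 0.746) before Itgb3 (2.79 ± 1.04). Itgb8 (0.230 ± 0.101) and Itga8 (0.223 ± 0.117) overlapped on that scale too.

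**Figure D1:**
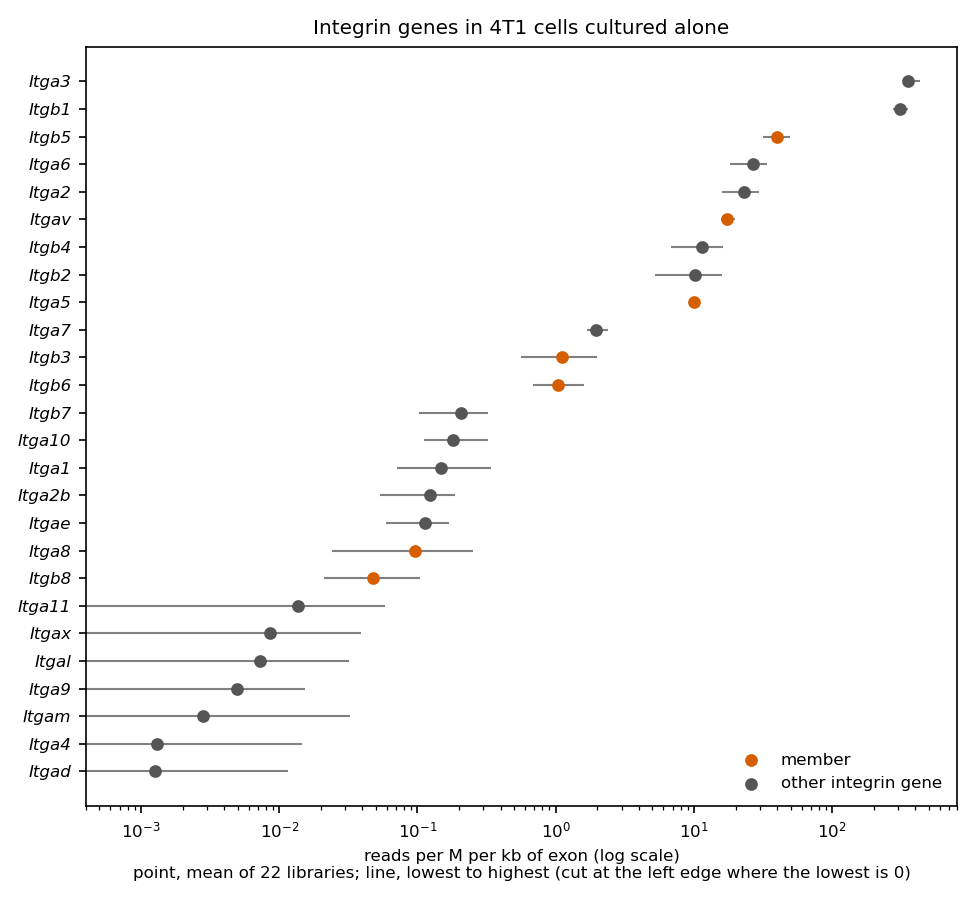
Level of the 26 integrin genes in 4T1 cells cultured alone, in reads per M per kb of exon on a log axis. Points are means of 22 libraries, lines run from the lowest to the highest library and members are orange; Itgb5, Itgav and Itga5 form a high group (39.6, 17.4 and 9.99), Itgb3 and Itgb6 a middle one (1.12 and 1.03), and Itga8 and Itgb8 lie at 0.0964 and 0.0478.

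Counting error followed these levels. The median library held 6587 reads of Itgav, 4293 of Itgb5 and 1579 of Itga5, against 251 of Itgb6 and 229 of Itgb3. Itga8 had 6 to 109 reads per library and Itgb8 8 to 173. Because the kit does not mark strand, reads of an antisense gene cannot be told from those of a member it overlaps. Of the 10744 exon bases of Itgav, 634 are shared with the antisense gene Gm13684, and of the 7368 of Itga8, 372 are shared with E030013I19Rik. The other 5 members share no exon base with another annotated gene.

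How stable each subunit was differed widely. In 4T1 alone the SD of the log2 values was 0.07 for Itga5 and 0.09 for Itgav, and 0.46 for Itgb3. Experiment was the larger source of spread for 6 of the 7 genes in 4T1 alone. It held 87.2% of the sum of squares for Itgb5, 72.4% for Itgb6, 55.4% for Itgb8 and 52.3% for Itgb3. The substrate held 6.20%, 13.9%, 6.05% and 34.6%. For Itga8 the order was the other way round, with 15.4% between experiments and 46.3% between substrates. These shares overlap because not every substrate was used in every experiment.

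**Figure D2:**
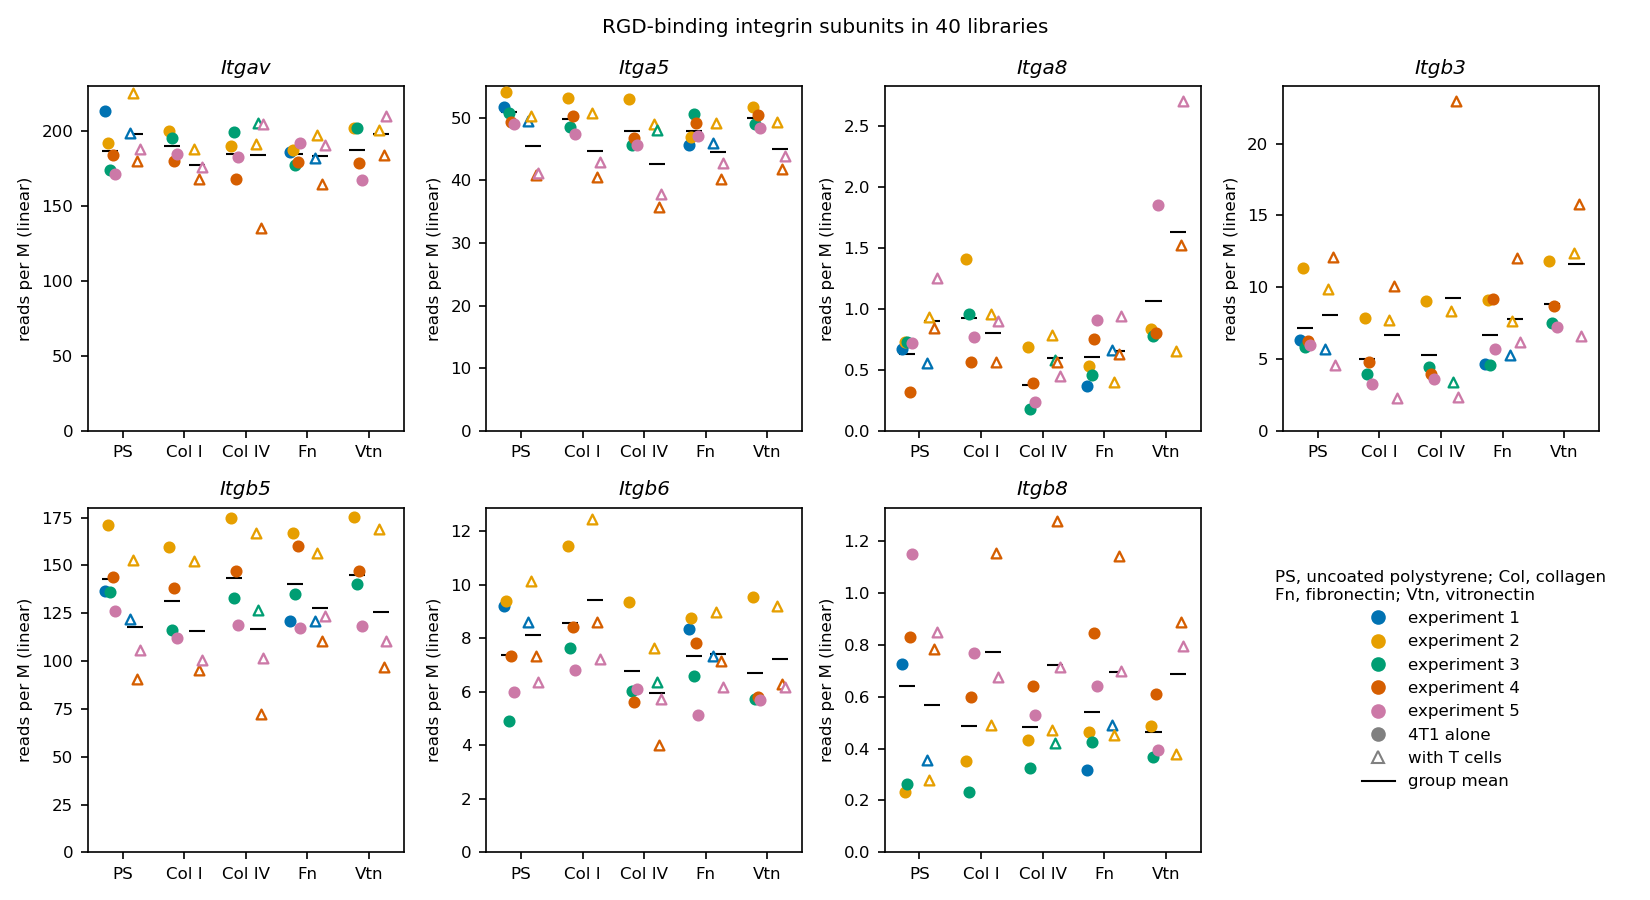
Reads per M (linear axis from 0) of the 7 members in all 40 libraries, by substrate; filled circles are 4T1 alone, open triangles co-cultures, colours the 5 experiments and black bars group means. Experiment 2 (yellow) is high for Itgb5 and Itgb6, and the co-cultures of experiment 4 (open orange triangles) are low for Itga5 (35.7 to 41.8) and Itgb5 (72.3 to 111) and high for Itgb3 (10.1 to 23.0).

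The first comparison asked what the presence of T cells did to the level of these receptors, as the mean of the differences on the 5 substrates. Itga5, the fibronectin-binding alpha chain, was the only member that passed the test, and it fell slightly, with a sign that turned when libraries were scaled to epithelial markers. Itgb5 had the larger negative difference, which missed the threshold and passed when the experiment was added as a replicate block. The other 5 members did not pass. Of all genes tested, 25.2% passed in either direction and 12.2% as lower, so 1 of 7 members is not a high share. The calls over all genes split into 1922 higher and 1788 lower. That split was 2534 and 1416 with edgeR, 2696 and 1473 with DESeq2, 1504 and 3076 after quantile normalisation, and 1874 and 1 after scaling to the epithelial markers. Without experiment 4, 0 of the 6 members still tested (Itgb8 fell below the filter) passed by limma, with 1.92% of genes called and 1 member at an unadjusted p under 0.05, and 1 passed with the block, with 8.5% called. The members' median difference was 0.04, against -0.01 over all genes tested.

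Itga5 (chr15:103344286-103366763, minus strand, mm10) read 54.1, 53.2, 53.1, 47.0 and 51.7 reads per M in experiment 2 alone, in the order uncoated plastic, collagens I and IV, fibronectin, vitronectin. With T cells the same 5 substrates gave 50.2, 50.8, 48.9, 49.2 and 49.2. These ranges overlapped. In experiment 4, 4T1 alone gave 49.3, 50.3, 46.8, 49.2 and 50.4, and the co-cultures gave 40.9, 40.5, 35.7, 40.2 and 41.8. In experiment 5 the values were 49.0, 47.4, 45.7, 47.0 and 48.4 alone and 41.2, 42.9, 37.8, 42.7 and 43.9 with T cells. In both experiments every co-culture lay below every library of 4T1 alone. In experiment 1, Itga5 without T cells was 51.6 (uncoated) and 45.7 (fibronectin), against 49.4 and 45.9 with T cells. Experiment 3 gave 50.8, 48.6, 45.7, 50.6 and 49.1 alone, and its co-culture on collagen IV read 48.1. In these 2 experiments the co-cultures lay within the range of 4T1 alone.

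Over all substrates Itga5 changed by -0.15 ± 0.04 (SE, log2; adjusted p = 0.0106 by limma and 0.0110 by edgeR). With the experiment as a replicate block the value was -0.15 ± 0.03 (adjusted p = 0.000529). In that fit, wells of 1 experiment counted as separate replicates of the T cell difference. Itga5 was lower in 15 of 18 pairs of wells of the same experiment and substrate. The mean paired difference was -0.30 in experiment 4 and -0.18 in experiment 5. It was -0.03, -0.06 and 0.07 in experiments 1, 2 and 3. These differences did not rank as the T cell marker sums did. From experiment 1 to experiment 5, the median sum with T cells was 297, 45.0, 27.1 (1 library), 1355 and 24.8. Experiment 5 thus had the lowest sum, while experiment 1, second to experiment 4, had 1 pair higher and 1 lower for Itga5. A relation between Itga5 and these sums was not tested. Without experiment 4 the value over all substrates was -0.09 (adjusted p = 0.355, and 0.0550 with the block), and without experiment 5 it was -0.14 (adjusted p = 0.0507). Where libraries were scaled to the epithelial markers instead, the sign turned to 0.05 (adjusted p = 0.493) while the median of all genes moved to 0.19.

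Itgb5 (chr16:33829665-33949338, plus strand) encodes the beta chain of a vitronectin receptor. In experiment 4 it read 144, 138, 147, 160 and 147 reads per M alone and 90.6, 95.1, 72.3, 111 and 97.1 with T cells, in the substrate order above. Experiment 2 gave 171, 160, 175, 167 and 175 alone and 153, 152, 167, 157 and 169 with T cells. Experiment 5 gave 126, 112, 119, 117 and 118 alone and 106, 100, 102, 124 and 111 with T cells. Only in experiment 4 did every co-culture lie below every library of 4T1 alone. Experiment 1 read 137 on uncoated plastic and 121 on fibronectin alone, against 122 and 121 with T cells. Experiment 3 read 136, 116, 133, 135 and 140 alone, with 127 in its co-culture on collagen IV. The paired difference was below 0 in 17 of 18 pairs, the exception being fibronectin in experiment 5.

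The mean difference of Itgb5 was -0.24 ± 0.09 (adjusted p = 0.0511 by limma and 0.0889 by edgeR). With the experiment as a block it was -0.25 ± 0.06 (adjusted p = 0.00155 by limma), where 45.8% of all genes passed and 23.4% passed as lower. Here too, wells of 1 experiment counted as separate replicates. The mean paired difference was -0.67 ± 0.20 over the 5 pairs of experiment 4 and -0.10 ± 0.09 (both SD) over the other 13. Without experiment 4 the 40-library value became -0.08 (adjusted p = 0.803), and -0.10 with the block (adjusted p = 0.0225). Leaving out 1 library at a time placed its adjusted p by limma between 0.0165 and 0.118, under the threshold in 12 of 40 fits. Those 12 left out each of the 5 libraries of 4T1 alone of experiment 5, each of the 4 co-cultures of experiment 2 on a coat, or a co-culture on uncoated plastic of experiment 1 or 2 or on collagen IV of experiment 3. Without the vitronectin co-culture of experiment 2, Itga8 passed as well (adjusted p = 0.0423).

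Epithelial markers were also lower in the experiment 4 pairs. The paired difference of their mean log2 level was -0.48 in experiment 4 and -0.07 in the other 13 pairs, and 4 of the 12 markers passed as lower. In experiment 5 the markers were at -0.03 ± 0.10 (SD, 5 pairs), while Itga5 was lower in 5 of 5 pairs, with a mean difference of -0.18 ± 0.06, and Itgb5 in 4 of 5. The part of the epithelial share in the values of Itga5 and Itgb5 was not tested beyond the scaling above, under which Itgb5 stood at -0.04 (adjusted p = 0.497).

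**Figure D3:**
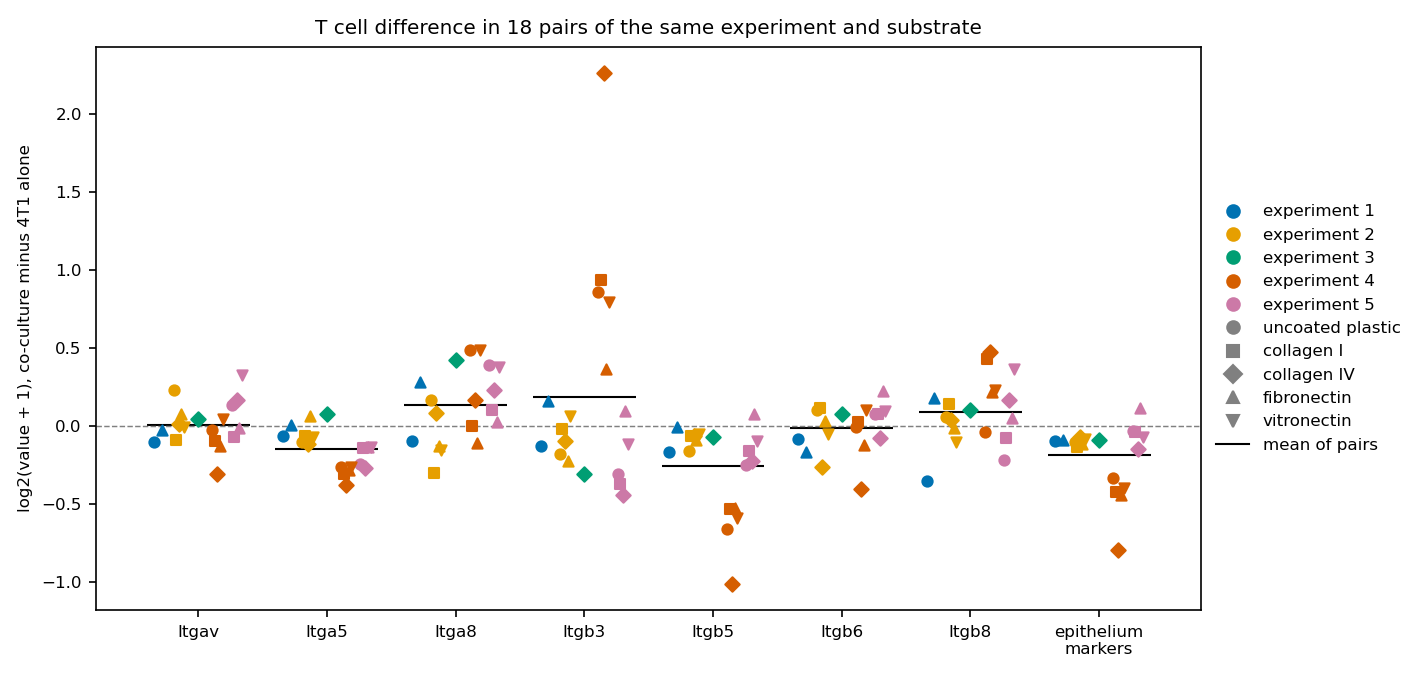
Difference in log2(value + 1) between co-culture and 4T1 alone for the 18 pairs of the same experiment and substrate; colours are experiments, shapes substrates, black bars the mean of the pairs, and the last column is the mean of the 12 epithelial markers. Itga5 and Itgb5 are below 0 in 15 and 17 of 18 pairs (for Itga5 the sign turns under epithelial scaling), and Itgb3 is above 0 in all 5 pairs of experiment 4 (orange) and in 3 of the other 13.

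For Itga5 and Itgb5, the members called for T cells with the block, the 250 bases before their annotated starts are shown, from the RefSeq promoter table for GRCm38.p6. The table held 6 of the 7 members and had no entry for Itgb3, so its window was not looked at. Capitals mark the GC box GGGCGG or its reverse complement CCGCCC, the binding motif of Sp1-type factors. The first sequence is chr15:103366792-103367041 on the minus strand and the second chr16:33829415-33829664 on the plus strand.
Itga5: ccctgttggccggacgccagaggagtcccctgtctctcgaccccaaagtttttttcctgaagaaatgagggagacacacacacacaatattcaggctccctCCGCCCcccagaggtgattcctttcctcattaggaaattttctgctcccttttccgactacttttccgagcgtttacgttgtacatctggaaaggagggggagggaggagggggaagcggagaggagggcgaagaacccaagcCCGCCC
Itgb5: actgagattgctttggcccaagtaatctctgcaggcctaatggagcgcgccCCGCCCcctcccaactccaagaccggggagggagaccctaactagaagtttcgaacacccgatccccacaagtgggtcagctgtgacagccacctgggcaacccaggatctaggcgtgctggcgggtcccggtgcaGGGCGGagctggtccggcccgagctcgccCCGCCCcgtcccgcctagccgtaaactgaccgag
Itga5 held 2 GC boxes and Itgb5 held 3, with none overlapping another. Neither held a CCAAT box (CCAAT or ATTGG), an AP-1 site (TGANTCA) or an E-box (CACGTG). Of 32851 upstream windows of the same length, 32.7% held a GC box, 33.9% a CCAAT box, 6.75% an AP-1 site and 6.02% an E-box. GC boxes were absent from the windows of Itgav, Itga8, Itgb6 and Itgb8. A match of letters is a description of the window and shows no binding.

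The T cell difference was not the same in every experiment. A test of the interaction between T cells and experiment, added after the data were seen, passed for 3 members, Itgb5 (adjusted p = 1.92e-06), Itgb3 (0.000235) and Itga5 (0.000503), by limma. The background was 46.4% of all genes tested. Itgav (0.0793), Itgb6 (0.148), Itgb8 (0.492) and Itga8 (0.711) did not pass.

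Itgb3 (chr11:104608000-104670476, plus strand), the beta chain shared by the vitronectin receptor and the platelet fibrinogen receptor, went in opposite directions. In experiment 4 it read 6.24, 4.80, 3.99, 9.15 and 8.69 reads per M alone and 12.1, 10.1, 23.0, 12.1 and 15.8 with T cells. There, every co-culture lay above every library of 4T1 alone. In experiment 5 it read 5.95, 3.29, 3.59, 5.73 and 7.23 alone and 4.60, 2.31, 2.38, 6.19 and 6.59 with T cells, which overlapped. The paired difference was 1.04 ± 0.72 over the 5 pairs of experiment 4 and -0.15 ± 0.19 (both SD) over the other 13, above 0 in 5 of 5 and in 3 of 13 pairs. The mean over all libraries was 0.24 ± 0.19 (SE; adjusted p = 0.341), and without experiment 4 it was -0.07 (adjusted p = 0.930).

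Markers of some other blood cells were also higher in the experiment 4 co-cultures. Itga2b, which pairs with beta-3 on platelets and megakaryocytes, read 2.56 to 5.71 reads per M there, against 0.511 to 1.6 in the other 13 co-cultures. The 6 erythroid and platelet markers measured, which include Itga2b itself, summed to 7.78 to 31.2 against 1.02 to 2.12. The 6 B cell markers summed to 45.1 to 140 against 0.948 to 14.8. The platelet genes Pf4 and Ppbp averaged 0.129 and 0.397, against 0.0138 and 0.272 in the other co-cultures, and the ranges of both overlapped. The summed level in experiment 4 thus came mostly from other markers of the list, such as the globin Hbb-bs at 5.48. The B cell sum came mostly from Ighm, at 42.7 to 133 against 0.579 to 14.3. Macrophage and monocyte markers (11.4 to 16.5 against 9.79 to 14.4) and dendritic cell markers (3.27 to 4.18 against 2.69 to 4.46) overlapped between the same co-cultures. The library with the most Itgb3, collagen IV with T cells at 23.0, was also the one with the highest T cell sum (3767) and the lowest epithelial sum (1756). The part of these cells in the Itgb3 value was not tested.

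The remaining subunits did not pass the test for T cells. Itgav (chr2:83724397-83806916, plus strand) ranged over 168, 185 and 214 reads per M (lowest, median, highest) in the 22 libraries of 4T1 alone and over 136, 190 and 226 in the 18 co-cultures. Its difference was 0.01 ± 0.04 (adjusted p = 0.915), with 8 pairs higher and 10 lower. Its lowest value, 136, was again the collagen IV co-culture of experiment 4. Itgb6 (chr2:60598292-60722643, minus strand) ranged over 4.91, 7.08 and 11.4 alone and 4.01, 7.27 and 12.5 with T cells, a difference of 0.04 ± 0.09 (adjusted p = 0.757). Under epithelial scaling, which moved the median of all genes to 0.19, Itgav (0.20, adjusted p = 0.0406) and Itgb6 (0.24, adjusted p = 0.0392) passed as higher.

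The low subunits did not pass either. Itga8 (chr2:12106632-12301922, minus strand) ranged over 0.177, 0.722 and 1.85 alone and 0.401, 0.721 and 2.70 with T cells, a difference of 0.14 ± 0.08 (adjusted p = 0.201). Itgb8 (chr12:119158022-119238802, minus strand) ranged over 0.233, 0.475 and 1.15 alone and 0.280, 0.687 and 1.28 with T cells, a difference of 0.14 ± 0.08 (adjusted p = 0.181). Itga8 was higher in 5 of 5 pairs of experiment 5, by 0.23 ± 0.16 (SD), and in 7 of the other 13. In experiment 4, Itgb8 was higher in 4 of 5 pairs, by 0.26 ± 0.20 (SD over 5 pairs of 1 experiment). Itgb8 passed the filter mostly through co-cultures of that same experiment, so these values are a description only. Both ranges overlapped between conditions, and quantile normalisation turned both signs.

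On each substrate taken alone, adding T cells gave 0 of 7 members by limma, with a background of 0% on each of the 5 surfaces. By edgeR it also gave 0 members, where 105 genes were called on uncoated plastic, 266 on collagen IV, 111 on fibronectin and 0 on each of the other 2 coats. At an unadjusted p under 0.05 by limma there was 1 member, Itga5 on uncoated plastic (-0.17 ± 0.08, adjusted p = 0.480), and 0 on each coat. The differences of Itga5 were -0.16 and -0.17 for the collagens I and IV, -0.11 for fibronectin and -0.15 for vitronectin. A test of whether the T cell difference varied with the substrate called 0 members and 0% of genes, with 0 members at an unadjusted p under 0.05 by limma and 0 called by edgeR.

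The second question was whether the coat under the cells changed the subunits that bind it. In the 40-library fit 0 of 7 members passed in any coat comparison, by limma and by edgeR. At an unadjusted p under 0.05 there was 1 member, Itga8, in the test across the 5 substrates in each condition (adjusted p = 1.00 in both). Few genes of any kind passed. In 4T1 alone the share was 0.0952% for collagen I against uncoated plastic, 0.0068% for collagen IV and 0% for each of the RGD-bearing coats. It was 0.252% for any difference among the 5 substrates, and 0% for fibronectin and vitronectin against the 2 collagens. In co-culture the shares were 0.0068%, 0.0136%, 0% and 0% for the same 4 coats, 0.129% for any difference and 0% for the last comparison. The 4 coat comparisons of a condition share its uncoated libraries.

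Within an experiment, the beta-3 chain differed between coats in 4T1 alone. Itgb3 was lower on collagen I and on collagen IV than on uncoated plastic in 4 of 4 experiments each, and higher on vitronectin in 4 of 4. On fibronectin it was lower than on uncoated plastic in 4 of 5, with a mean difference of -0.10 ± 0.35 (SD). In experiment 2 it read 11.3 on uncoated plastic, 7.87 and 9.02 on collagens I and IV, 9.09 on fibronectin and 11.8 on vitronectin. In experiment 3 the values were 5.84, 3.96, 4.42, 4.61 and 7.50 in the same order. With experiments 4 and 5, given above, both ligand coats of the RGD receptors were above both collagens in all 4 experiments with all coats, though fibronectin exceeded collagen IV narrowly in experiments 2 (9.09 and 9.02) and 3 (4.61 and 4.42). Pooled over experiments the groups overlapped, since collagen libraries of experiment 2 (7.87 and 9.02) were above the fibronectin library of experiment 3 (4.61).

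The mean of fibronectin and vitronectin exceeded that of the collagens by 0.27, 0.41, 0.88 and 0.75 in experiments 2, 3, 4 and 5 of 4T1 alone. In the 40-library fit the difference was 0.53 ± 0.29 (unadjusted p = 0.0801), and 0.57 ± 0.20 with the replicate block (adjusted p = 0.347). When only the 22 carcinoma-only libraries were fitted, with the block, a choice made after the data were seen, it was 0.56 ± 0.09 (adjusted p = 0.00576 by limma), a call that 1.44% of genes shared. Without each experiment in turn that fit gave 0.47 to 0.65, with adjusted p from 0.000597 to 0.0290. The same 22 libraries without the block gave 0.53 (adjusted p = 0.759).

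In that fit, the test across the 5 substrates called Itgb3 (adjusted p = 0.00413) and no other member, with 9.82% of genes called. Against uncoated plastic, collagen I gave 2 members as lower, Itgb3 (-0.52 ± 0.13, adjusted p = 0.0304) and Itgb5 (-0.16 ± 0.04, adjusted p = 0.0463), with 3.14% of genes called. Itgb5 was lowest on collagen I in 4 of 4 experiments of 4T1 alone. Collagen IV (1.43% of genes), fibronectin (0.877%) and vitronectin (0.0136%) gave 0 members by limma, and at an unadjusted p under 0.05 they gave 2, 1 and 0. For Itgb3 on collagen IV the value was -0.48 ± 0.13 (adjusted p = 0.0721).

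**Figure D4:**
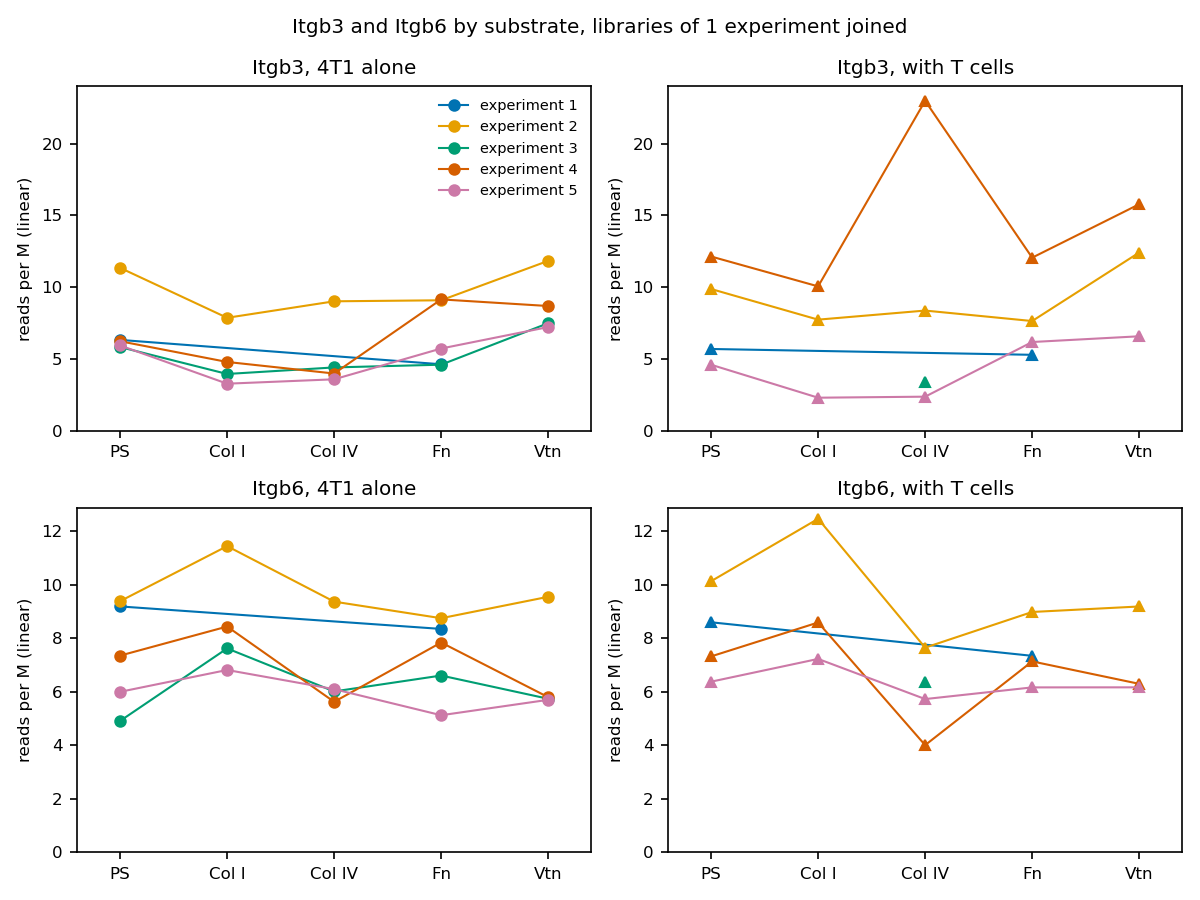
Reads per M (linear axis from 0) of Itgb3 and Itgb6 on the 5 substrates, for 4T1 alone and with T cells; each line joins the libraries of 1 experiment. In 4T1 alone Itgb3 dips on both collagens in each of the 4 experiments with all coats, Itgb6 peaks on collagen I, and the collagen IV co-culture of experiment 4 lies at 23.0 for Itgb3 and 4.01 for Itgb6.

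With T cells, Itgb3 was higher on vitronectin than on uncoated plastic in 3 of 3 experiments (0.36 ± 0.07, SD). It was lower on collagen I in 3 of 3 (-0.44 ± 0.28), on collagen IV in 2 of 3 and on fibronectin in 3 of 4. Both RGD-bearing coats were above both collagens in 1 of 3 experiments with all coats, experiment 5. In experiment 2 fibronectin (7.65) was the lowest of the 5 surfaces and vitronectin (12.4) the highest. The difference between the RGD-bearing coats and the collagens was 0.25 in experiment 2, -0.14 in experiment 4 and 1.14 in experiment 5. In experiment 4 the collagen IV library stood at 23.0. A fit to the 18 co-cultures with the block gave 0.41 ± 0.19 (adjusted p = 0.511) and called 0 members by limma, with 0.252% of genes called and 2 members at an unadjusted p under 0.05. Its test across substrates also called 0 members, with 0.361% of genes called and 1 member at an unadjusted p under 0.05. A block fit to all libraries without experiment 4, also added after the data were seen, gave 0.70 (adjusted p = 0.00335 by limma). It leaves out the experiment with the negative difference. Of the co-culture experiments with all coats it keeps only experiments 2 and 5, at 0.25 and 1.14. It therefore cannot decide whether the coats differ with T cells.

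Itgb6, the epithelial TGF-beta-activating chain, had its highest library on collagen I in every experiment with all coats. In 4T1 alone it read 11.4, 7.61, 8.43 and 6.81 on collagen I in experiments 2, 3, 4 and 5, against 9.38, 4.91, 7.35 and 5.99 on uncoated plastic. With T cells it read 12.5, 8.58 and 7.22 on collagen I in experiments 2, 4 and 5, against 10.1, 7.32 and 6.37. The lowest of the 5 substrates with T cells was collagen IV in 3 of 3 experiments, at 7.64, 4.01 and 5.72. Collagen I exceeded uncoated plastic by 0.29 ± 0.18 (SD, n = 4 experiments) alone and by 0.21 ± 0.06 (SD, n = 3) with T cells, but the groups overlapped when experiments were pooled. Across substrates the block fit to 40 libraries gave adjusted p = 0.297 alone and 0.0629 with T cells.

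Itga8 was the member with the largest share of its spread between substrates. On vitronectin it read 0.836, 0.778, 0.801 and 1.85 alone and 0.652, 1.5 and 2.70 with T cells. On collagen IV it read 0.683, 0.177, 0.394 and 0.236 alone and 0.783, 0.579, 0.567 and 0.450 with T cells. In 4T1 alone these 2 groups, picked after their values were seen, did not overlap, while with T cells they did. Adjusted p across substrates with the block was 0.272 alone and 0.393 with T cells. Nephronectin (Npnt), its ligand, was 1 of the few genes called across substrates in the 40-library fit (adjusted p = 0.0242 alone and 0.00802 with T cells). Npnt stood at 91.7 ± 6.57 on collagen I, 87.9 ± 7.61 on vitronectin and 57.0 ± 6.89 on collagen IV in 4T1 alone (SD, n = 4 each). On fibronectin it stood at 71.0 ± 3.94 and on uncoated plastic at 72.9 ± 5.58 (n = 5 each). A relation between Npnt and Itga8 was not tested. The 3 libraries highest in Itga8, at 1.5 to 2.70, were on vitronectin, and they are among the 5 libraries through which it passed the filter.

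Itgav and Itga5, the more abundant alpha chains, stayed close over the coats. Group means of Itgav in 4T1 alone lay between 185 ± 5.98 (fibronectin, n = 5) and 190 ± 9.38 reads per M (collagen I, n = 4). Those of Itga5 lay between 47.8 ± 3.54 (collagen IV, n = 4) and 51.0 ± 2.09 (uncoated plastic, n = 5), all SD. Itga5 was lower on fibronectin than on uncoated plastic in 5 of 5 experiments, with a mean difference of -0.09 ± 0.09 (SD), and on collagen IV in 4 of 4. Neither difference passed. Itgb8 had no consistent order: its highest substrate in 4T1 alone was vitronectin, fibronectin or uncoated plastic, depending on the experiment.

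Genes of the wider pathway were grouped in 5 lists, whose counts stand beside 13.1% of all genes called as higher and 12.2% as lower with T cells. Of the 2 partner subunits, Itga2b rose with T cells (0.54 ± 0.14, adjusted p = 0.0123), from a mean of 0.677 to 1.63 reads per M. Without experiment 4 its difference was 0.24 ± 0.08 (adjusted p = 0.134). Itgb1 stood at 1272 ± 94.9 alone and 1222 ± 142 with T cells (-0.06 ± 0.05, adjusted p = 0.347). Of 8 RGD-bearing ligands tested, 0 passed for T cells by limma without the block and by edgeR, 1 (Mfge8) had an unadjusted p under 0.05, and 5 passed as lower with the block, where 23.4% of all genes did. Their median was -0.14. Without experiment 4 the median was -0.03, and 1 passed as lower with the block, where 613 of 14068 genes did. Fibronectin itself (Fn1) was made at 2146 ± 385 reads per M in 4T1 alone and 1970 ± 631 in co-culture, and thrombospondin-1 (Thbs1) at 1102 ± 209 and 990.3 ± 272. The experiment 4 co-cultures averaged 1471 for Fn1 and 785 for Thbs1. In the other experiments Fn1 averaged 2154 alone and 2162 with T cells, and Thbs1 1109 and 1069.

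Of 6 genes of the latent TGF-beta complex, 2 rose with T cells and 0 fell. Both anchor latent TGF-beta on leukocytes: Lrrc32 went from 0.0349 to 2.20 and Nrros from 0.00450 to 2.85 reads per M, with 6.94 and 9.14 in experiment 4 (adjusted p = 0.0110 and 0.0116 by limma). Without experiment 4 both fell below the filter on low values and were not tested. The list's median was 0.01. Of 18 genes of integrin activation and adhesion signalling, 1 rose and 2 fell. Fermt3, the kindlin of blood cells, went from 0.502 to 10.4 (1.78 ± 0.40, adjusted p = 0.00549). Src fell by 0.17 (adjusted p = 0.0414) and the adaptor Tns3 by 0.14 (adjusted p = 0.0374) by limma, while edgeR gave them adjusted p = 0.0660 and 0.0516. Src averaged 80.8 reads per M in the experiment 4 co-cultures, 103 in the others and 108 in 4T1 alone, and Tns3 311, 390.5 and 403, beside the lower epithelial sum of experiment 4. Without that experiment Src stood at -0.04 (adjusted p = 0.825) and Tns3 at -0.04 (adjusted p = 0.729), while Fermt3 still passed (0.80 ± 0.18, adjusted p = 0.0128). The list's median was -0.11.

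Of 12 other integrins tested, 4 rose and 0 fell with T cells, with a median of 0.17. They were leukocyte chains: Itga4 (3.27 ± 0.56, adjusted p = 0.000704) and Itgal (2.82 ± 0.50), followed by Itgb7 (2.68 ± 0.47) and Itgae (0.97 ± 0.24). Without experiment 4, Itga4 (1.87 ± 0.24), Itgal (1.59 ± 0.23) and Itgb7 (1.57 ± 0.23) still passed, the highest adjusted p of the 3 being 0.000126, and Itgae (0.42 ± 0.13, adjusted p = 0.125) did not. Itgal averaged 70.9 reads per M in the experiment 4 co-cultures, 3.35 in the others and 0.0480 in 4T1 alone. Itgal, Lrrc32, Nrros and Itga2b were each highest in experiment 4, whose co-cultures held the most T cell marker RNA, and the part of T cell RNA in these differences was not tested.

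The genes whose pattern over the 22 libraries of 4T1 alone was most like a member's were found by Pearson correlation of log2 values, as a description. Libraries of an experiment share that experiment, so the points are not independent. For Itgav they were Npc1 (r = 0.84, and 0.75 after subtracting each experiment's mean), Mapk6 (0.84 and 0.77) and Lrrc8c (0.82 and 0.75). For Itga5 they were an entry that a spreadsheet had turned into the date 9-Sep (0.84 and 0.78), Cep250 (0.83 and 0.76) and Zswim4 (0.82 and 0.71). For Itgb5 they were Clu (0.94 and 0.78), 2310007B03Rik (0.94 and 0.72) and St5 (0.93 and 0.69). With experiment means subtracted throughout, other genes led: Rc3h1 for Itgav (0.89), Plxnb1 for Itga5 (0.85) and Gm8615 for Itgb5 (0.83).

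Among the members themselves, the closest pair in 4T1 alone was Itgb3 and Itgb5, the 2 beta chains of the vitronectin receptors. Their r was 0.80 over 22 libraries and 0.63 with experiment means subtracted. Itgb6 went with Itgb5 over libraries (0.57) but against it within experiments (-0.38).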

How the data were processed

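RNA of 40 libraries was sequenced as single-end 75-base reads. Per the submitters' processing notes, STAR 2.6, featureCounts and edgeR 3.31.7 were used with mm10. The authors' deposited signal values are reads per M of a scaled library size. Whole reads were recovered from them (100% within 0.01 of a whole number), and recovered depth was 19.0 to 239 M (M, 1000000). A count of 0 allows up to 0.0124 to 0.158 reads per M by library, for counting error only. One gene with a cell that is no number was dropped, 1 duplicated symbol was kept once, and 19 symbols read as dates.

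The test was limma 3.58.1 (R 4.3.3) on log2(value + 1), for genes at 1 or more in at least 3 libraries. The members and gene lists were chosen with earlier results of these data known. The named genes were the 7 members, the 2 genes per list with the largest difference among those called and the 3 genes nearest to each of Itgav, Itga5 and Itgb5; others were named after their values were seen. Replicate numbers are experiments in the labels, so the same number pairs libraries. Deviations of libraries sharing a number correlated with a median r of 0.48 (156 pairs, lowest 0.04), against -0.13 for 562 others. Libraries of a group differed by more than sampling noise, with chi-square per degree of freedom of at least 7.03. Alternatives were edgeR 4.0.16 and DESeq2 1.42.0 on recovered reads, the replicate block, other scalings and filters, and libraries left out. Limma and edgeR without the block were tested on simulated data, for the mean T cell difference only. Those data held no difference between experiments, and the block fits were not tested on simulated data. Lengths, coordinates and exon overlaps came from GENCODE M21 and promoters from RefSeq.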

Additional observations from a re-analysis of the deposited data

Results flagged for a closer look

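In 56 groups of 4 or 5 libraries, 7 had a library far from the others, where chance alone flags about 1 in 20 groups. In 5 of them it came from experiment 2 of 4T1 alone. Itga5 on collagen IV read 53.1 reads per M in experiment 2, against 45.7 to 46.8 in the others. Itgb3 read 9.02 on collagen IV (others 3.59 to 4.42) and 11.3 on uncoated plastic (others 5.84 to 6.33). Itgb6 read 9.36 on collagen IV (others 5.62 to 6.09) and 9.54 on vitronectin (others 5.70 to 5.79). The remaining 2 were of the low gene Itga8. It read 0.316 on uncoated plastic in experiment 4 (others 0.667 to 0.730) and 1.85 on vitronectin in experiment 5 (others 0.778 to 0.836).

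The T cell difference varied between the 5 experiments for 3 members by an interaction test in limma, added after the data were seen. The adjusted p was 1.92e-06 for Itgb5, 0.000235 for Itgb3 and 0.000503 for Itga5. Of 14701 genes tested, 46.4% passed the same test, so 3 members is not a high share.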

How the results depend on the processing

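Of 604 recomputed values, 551 kept their direction and side of the threshold, or their count. For the mean T cell difference the number of members called was 2 with the replicate block by limma and by edgeR. It was 2 after scaling to the epithelial markers and 5 with the block and that scaling. It was 0 to 3 when experiments or single libraries were left out. Of 14701 genes tested, the block called 6726 by limma and 6561 by edgeR. The scaling called 1875, and the block with the scaling called 10232, so 5 members there is not a high share. With the block and that scaling the number of members called was 2 for T cells on collagen IV and 1 across substrates in each condition. The block fit to 1 condition gave 2 for collagen I against uncoated plastic and 1 each across substrates and for fibronectin and vitronectin against collagens, all in 4T1 alone. The block without experiment 4 gave 1 in each of those 3, and 1 in co-culture for the last 2. The replicate block alone changed no other count. The mean T cell difference changed sign for Itgav without the deepest library (-0.0043; -0.028 to 0.051 over left-out experiments and -0.0056 without 1 library), for Itga5 with epithelial scaling (0.047, and 0.036 with the block), and for Itgb3 with the block without experiment 4 (-0.14; -0.067 to 0.46 over left-out experiments). Quantile normalisation turned Itga8 (-0.12), Itgb6 (-0.079; -0.022 to 0.089 over left-out experiments) and Itgb8 (-0.14). Itgb6 on fibronectin and vitronectin against collagens in co-culture spanned -0.10 to 0.081 with libraries left out. The cause was not tested. DESeq2 was not run for tests across several terms. Depth limits Itga8 and Itgb8, with median reads of 24 and 18. With no label of separate cultures beyond the 5 experiments, p-values without the block measure spread between libraries. The block removes only the mean level of each experiment. With it, wells of 1 experiment still counted as separate replicates of the T cell difference. Those p-values therefore also measure spread between libraries, not between experiments.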
